A study of Homo sapiens with 6 samples.

Results

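HuR sites inside 6 giant human genes are described here: MACROD2, FHIT, WWOX, IMMP2L, EXOC4 and RAD51B. A site counted as a member when its whole interval lay inside the gene span on the gene's own strand (genome build hg19). Of the 658853 sites in the list that combined the HuR replicates, 883 were members. The lists of HuR replicates 1, 2 and 3 gave 87 of 186157, 287 of 405048 and 693 of 550681 sites, and the p-filtered combined list gave 321 of 373845.

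The study mapped where HuR sits on RNA in HEK293, a cultured human line of embryonic kidney origin, by DO-RIP-seq, in which RNA in a cell lysate is cut with micrococcal nuclease and the pieces held by a protein are captured and sequenced. Pieces of 25 to 70 nt were captured in 3 samples with mouse anti-HuR (3A2) antibodies and in 3 negative control samples with normal mouse serum antibodies, and values of the negative controls were not used here. All captures drew on digested lysates that had been pooled, so the spread between replicates, given as SD with n = 3, may be technical alone. Each site carries a LOD score above 0 computed by the authors, on a scale that the sources used here do not state and that differs from list to list.

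The depth of the libraries is unknown. The number of sites in a gene was not corrected for the amount of its RNA, so binding per molecule and RNA abundance cannot be told apart.

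HuR, the ELAVL1 protein, binds U-rich and AU-rich RNA. It is mainly nuclear at steady state and is known to bind introns as well as 3′ untranslated regions. A transcript is made from its 5′ end onward, and introns are removed during or after its synthesis. The 6 genes have diverse products. EXOC4 is a subunit of the exocyst, which tethers secretory vesicles, and RAD51B acts in DNA repair by homologous recombination. IMMP2L is a subunit of the mitochondrial inner membrane peptidase. WWOX is an oxidoreductase with WW domains, FHIT a dinucleoside polyphosphate hydrolase and MACROD2 a hydrolase of ADP-ribose. WWOX, FHIT, IMMP2L and MACROD2 lie at chromosomal fragile sites.

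On hg19 the spans were MACROD2 at 20:13976146-16033842 (plus strand), FHIT at 3:59735036-61237133 (minus), WWOX at 16:78133327-79246564 (plus), IMMP2L at 7:110303106-111202573 (minus), EXOC4 at 7:132937823-133751342 (plus) and RAD51B at 14:68286496-69196935 (plus). Together they cover 7.30 Mb. In GENCODE 29, which is annotated on GRCh38 and was used for lengths and nesting only, the exons of all transcripts of each gene together made up between 0.362% of the span (FHIT) and 1.16% (EXOC4), so the genes are almost wholly intron. Exons could not be placed on hg19, and single sites are therefore not assigned to an exon or intron. A bound follows from length alone. Combined sites covered 7235 nt in IMMP2L, against 3411 nt of annotated exon, so at least 52.9% of the covered bases lay outside exons if the exons have the same length on hg19. The same bound was 30.5% for EXOC4 (13615 nt covered, 9466 nt of exon), 28.2% for WWOX (6805 nt and 4886 nt) and 14.2% for RAD51B (8715 nt and 7477 nt). In MACROD2 and FHIT the covered length was below the exon length and sets no bound.

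The giant genes differed widely in how densely HuR sites were placed. Density is given as sites per Mb of span for every 100000 sites in the list, which scales for the sizes of the lists. EXOC4 had 19.8, 32.2 and 51.6 in replicates 1, 2 and 3, which average 34.5 ± 16.0 (SD, n = 3). RAD51B had 7.08, 17.6 and 30.9, a mean of 18.5 ± 11.9 (SD, n = 3). These are the vesicle tethering and recombination genes of the set, and they held 293 and 200 of the 883 combined sites. IMMP2L had 4.78, 10.2 and 28.7, a mean of 14.5 ± 12.5 (SD, n = 3). WWOX had 13.5, 11.3 and 17.1, a mean of 14.0 ± 2.94 (SD, n = 3). Both lie in the middle of the set, IMMP2L with a wide and WWOX with a narrow spread. FHIT had 1.43, 2.30 and 3.63, a mean of 2.45 ± 1.11 (SD, n = 3), and MACROD2 had 1.31, 1.68 and 2.65, a mean of 1.88 ± 0.693 (SD, n = 3). In these genes of a nucleotide hydrolase and an ADP-ribose hydrolase, sites were sparse in every replicate. The only neighbours in this order whose replicate values did not overlap were WWOX, with a lowest value of 11.3, and FHIT, with a highest value of 3.63. EXOC4 was first and FHIT and MACROD2 had ranks 5 and 6 in every replicate, while WWOX had rank 2, 3 and 4 in replicates 1, 2 and 3. Replicate 3 carried much of the level of some genes. Without it the mean was 7.47 in IMMP2L, below the 12.4 of WWOX, and RAD51B came to 12.4 as well. With the same number of highest-scoring sites taken from each list, the means were 21.6 in EXOC4, 13.4 in WWOX, 8.26 in RAD51B and 5.77 in IMMP2L, so WWOX then stood above RAD51B and IMMP2L. MACROD2, at 1.57, and FHIT, at 1.55, were then level within their spread. For scale, the 5574 strand-specific 1-Mb windows that held any combined site had a median density of 10.7 over the same replicates, with 81.6% of them at or below EXOC4 and 29.0% at or below MACROD2.

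**Figure D1:**
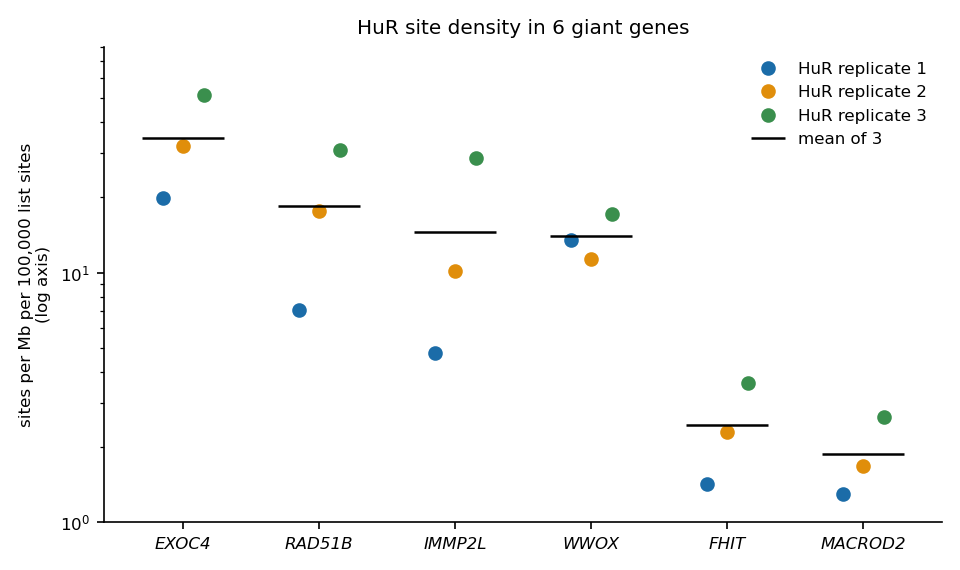
Site density of each gene, in sites per Mb of span per 100,000 sites of the list (log axis). Points are the 3 HuR replicates and bars are their means. EXOC4 is highest in every replicate and MACROD2 lowest, and the replicate 3 point lies above the replicate 1 point in all 6 genes.

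Replicate 3 put a larger part of its list into these genes than the other replicates did. Members made up 0.0467% of the sites in replicate 1 (95% Wilson interval 0.0379 to 0.0576), 0.0709% in replicate 2 (0.0631 to 0.0795) and 0.126% in replicate 3 (0.117 to 0.136), where the intervals cover counting error only. The mean was 0.0811% ± 0.0405 (SD, n = 3), and replicate 3 stood at 2.69 times replicate 1. The list of replicate 3 was also the longest, at 2.96 times the length of that of replicate 1. With only the 186157 highest-scoring sites taken from every list, the shares were 0.0467%, 0.0419% and 0.0634% in replicates 1, 2 and 3. The difference between replicates was not the same in each gene. Density in replicate 3 was 6.00 times that in replicate 1 for IMMP2L and 4.37 times for RAD51B. It was 2.60 times for EXOC4, 2.54 times for FHIT and 2.03 times for MACROD2. For WWOX it was 1.27 times. At equal list size replicates 1, 2 and 3 had densities of 4.78, 4.18 and 8.36 in IMMP2L, 7.08, 5.31 and 12.4 in RAD51B, and 19.8, 19.1 and 25.8 in EXOC4. WWOX then had 13.5, 12.5 and 14.0, FHIT 1.43, 1.07 and 2.15, and MACROD2 1.31, 1.04 and 2.35. By SD the replicates lay closer together than with full lists in every gene but MACROD2, where the SD hardly changed (0.691 against 0.693).

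HuR sites in these spans lay almost entirely on the strand of the 6 genes. The rule that chose the members also used strand, so the ratio describes the lists and is not an independent test. The sense strand held 87, 287 and 693 sites in replicates 1, 2 and 3, against 2, 5 and 11 on the opposite strand of the same spans. The ratio was 43.5, 57.4 and 63.0, a mean of 54.6 ± 10.0 (SD, n = 3). On the log2 scale the mean was 5.75 ± 0.28 (SD, n = 3). An exact two-sided sign-flip permutation test gave p = 0.25, the smallest value that 3 replicates allow, so no comparison of this kind can pass 0.05. Of the 16 combined sites on the opposite strand, 12 were in the MACROD2 span, 3 in WWOX and 1 in FHIT. In GENCODE 29 the protein-coding gene FLRT3 lies inside MACROD2 on the opposite strand, and LRRN3 lies likewise inside IMMP2L, where no site was found on that strand. Noncoding genes are nested too, among them 3 antisense genes inside MACROD2 and 5 inside WWOX. On the same strand as the giant gene, 6 sense intronic genes lie inside WWOX, 1 inside MACROD2 and 1 inside IMMP2L. Sites on either strand were not assigned to nested genes. Without MACROD2 the replicates had 82, 273 and 663 sense sites, against 0, 1 and 1 on the opposite strand, too few for a ratio.

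In the combined list sites began near the annotated 5′ ends of the genes, and sites were almost missing upstream of them. In the 100 kb upstream of the 6 genes, on the same strand, the replicate lists held 1, 0 and 3 sites, against 41, 121 and 220 in the first 100 kb inside the genes. The combined list gave 268 inside and 3 upstream. The first combined site started between 548 nt (IMMP2L) and 1785 nt (MACROD2) past the 5′ end. In single lists the first site could lie much farther in. In replicate 1 it started at 558 nt in IMMP2L and 1438 nt in EXOC4. It started at 6119 nt in WWOX, 7670 nt in RAD51B, 57485 nt in MACROD2 and 216998 nt in FHIT. In the p-filtered list it started at 5350 nt in MACROD2 and 7670 nt in RAD51B, and between 568 and 1013 nt in the other genes. Summed over the genes, the step at the 3′ ends was much smaller. The last 100 kb of the genes held 7, 13 and 23 sites in replicates 1, 2 and 3, against 2, 9 and 18 in the 100 kb downstream. In the combined list the numbers were 27 and 23, and of the 23 downstream sites 14 lay beyond EXOC4, 8 beyond RAD51B and 1 beyond IMMP2L. Of the 27 inside, EXOC4 had 18, FHIT 3, WWOX and IMMP2L 2 each, and MACROD2 and RAD51B 1 each. Only RAD51B thus had more sites downstream than in its last 100 kb, and counts outside EXOC4 were small.

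Within the genes, sites were concentrated toward the 5′ end. The 5′ 50% of the spans held 72 of 87 member sites in replicate 1 (82.8%), 256 of 287 in replicate 2 (89.2%) and 590 of 693 in replicate 3 (85.1%). The mean was 85.7% ± 3.26 (SD, n = 3), where an even spread gives 50%, and the exact sign-flip permutation test gave its smallest p of 0.25. With each gene given the same weight the mean was 84.7% ± 4.26 (SD, n = 3). All 6 genes had over 50% of their combined sites in the 5′ 50% of the span, from 63.0% in FHIT to 95.3% in MACROD2. Over genes and replicates, 17 of 18 values were above 50% and the other one was at 50% (IMMP2L in replicate 1, with 4 of 8 sites).

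**Figure D2:**
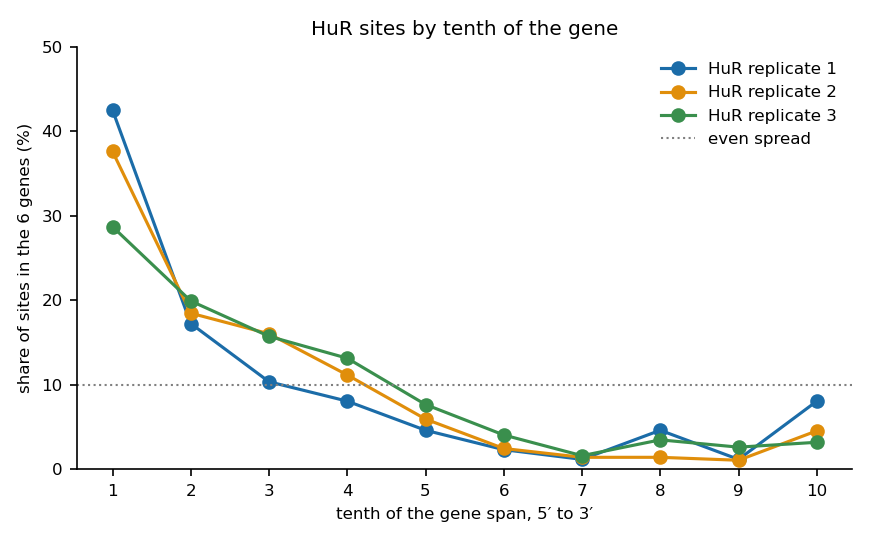
Share of member sites in each of 10 equal bins of the gene span, from 5′ to 3′, in the 3 HuR replicates. The dotted line marks an even spread. The first bin holds 42.5%, 37.6% and 28.7% of the sites in replicates 1, 2 and 3. WWOX supplied 20 of 37, 34 of 108 and 51 of 199 of the sites in that bin.

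The decline appeared in distance as well as in relative position. All 6 genes reach past 800 kb, so up to that point each bin holds the same length from every gene. The combined list had 500.0 sites per Mb in the first 50 kb, 393 from 50 to 100 kb, 255 from 100 to 200 kb, 224 from 200 to 400 kb and 67.1 from 400 to 800 kb. Beyond 800 kb, where MACROD2, FHIT and WWOX supply most of the length, it had 12.8. In the first 50 kb, replicates 1, 2 and 3 had 96.7, 230.0 and 410.0 sites per Mb, against 3.33, 12.1 and 46.7 from 400 to 800 kb. Over the first 100 kb WWOX alone supplied 20 of 41, 34 of 121 and 49 of 220 sites in replicates 1, 2 and 3. The decline was not steady in every list, since replicate 1 had 11.7 sites per Mb from 100 to 200 kb and 19.2 from 200 to 400 kb, and replicate 2 had 66.7 and 70.8. The profiles of the replicates were alike over the 150 bins of 50 kb in the 6 genes, with Pearson's r of 0.848 for replicates 1 and 2, 0.691 for 1 and 3 and 0.923 for 2 and 3, and Spearman's rho of 0.656, 0.557 and 0.813 for the same pairs. These coefficients are across bins, which share genes and lists and are not independent. The bins of all 6 genes were pooled, so differences in density between genes enter the coefficients. They do not give the likeness of the replicates within single genes.

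**Figure D3:**
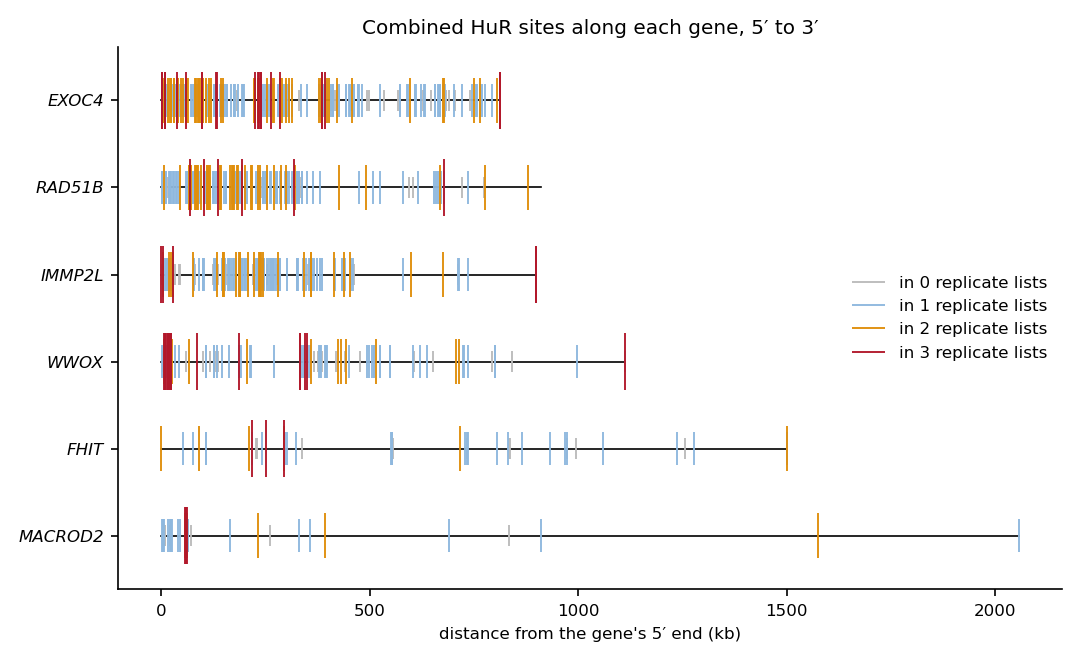
Combined HuR sites along each gene, by distance of the site's midpoint from the 5′ end in kb. Black lines are the spans, and the colour and height of a tick give the number of replicate lists the site overlapped. Sites crowd toward the left end of the spans, least so in FHIT (63.0% in the 5′ 50%), and tall red ticks also stand at the right end of EXOC4, IMMP2L and WWOX.

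The shape of the decline differed from gene to gene. In EXOC4, 90 of 293 combined sites lay in the first 100 kb, and sites went on along the whole gene, with 81.9% of its 10-kb windows holding at least 1 and no site-free stretch longer than 34.4 kb (7:133471906-133506320). In RAD51B, 57 of 200 sites lay in the first 100 kb, and the first 4 of 10 equal bins held 52, 49, 44 and 30 sites, against 3 in bin 5. Its longest site-free stretch was 104 kb (14:69062691-69166235). In IMMP2L the fullest of the 10 bins was bin 3, with 56 of 173 sites, and bin 1 had 33. No combined site lay in the 163 kb of 7:110303496-110466905.

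MACROD2 had the largest share of its combined sites in the first 100 kb, 32 of 43 (74.4%), with 3, 11 and 23 sites there in replicates 1, 2 and 3 out of 5, 14 and 30. In replicate 1 WWOX had the larger share there, 20 of 28 sites. The rest of the MACROD2 span was sparse, and its longest stretch with no combined site was 665 kb (20:14886661-15552055). In WWOX, 50 of 128 sites lay in the first 100 kb, and a further group of 25 lay in bin 4 of 10, with a site-free stretch of 155 kb at 16:78975826-79130950. FHIT had the smallest share in its first 100 kb, with 4 of 46 sites. Its bin 2, from 10% to 20% of the span, held 10 sites and bin 1 held 6. In replicate 1 FHIT had 0 sites in bin 1 and 3 in bin 2. The stretch of 223 kb before its last sites, 3:59736856-59959705, held none.

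A small group of sites lay at the 3′ ends, and a larger share of it recurred. This group was chosen after its values were seen. The last 2 kb of the spans held 11 combined sites in 5 genes, with 7, 8 and 11 sites in replicates 1, 2 and 3. The 100 kb before the last 10 kb held 16 combined sites, 15 of them in EXOC4, and 0, 4 and 11 sites in the replicates. Of the 11 sites, 6 overlapped all 3 replicate lists (54.5%, 95% Wilson interval 28.0 to 78.7), against 58 of the 872 other members (6.65%, interval 5.18 to 8.50). The 3′ group also had a higher median combined LOD, 6.70 against 5.36, and a greater median width, 50 nt against 40 nt, and their part in the difference was not tested. EXOC4 had 3 of these 6 and IMMP2L 2, including the highest-scoring recurrent site of IMMP2L at 7:110303421-110303495, which lies 315 nt from the 3′ end of the span. WWOX had the other one, at 16:79246441-79246505, 59 nt from its 3′ end. This WWOX site scored low, with a combined LOD of 4.05 and replicate percentiles of 3.89, 6.79 and 4.16. The EXOC4 site at 7:133749561-133749610 did so too, with a combined LOD of 3.06 and percentiles of 6.85, 5.71 and 4.41. The other recurrent sites of the group had combined LODs from 7.96 to 13.8. RAD51B had none in this stretch, and its last combined site lay 30.7 kb before the 3′ end.

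Member sites scored lower and were narrower than sites elsewhere. Within their own lists, members stood at a median score percentile of 40.6, 37.3 and 36.2 in replicates 1, 2 and 3, which average 38.0 ± 2.30 (SD, n = 3), where all other sites have a median of about 50 in each. The difference was -12.1 ± 2.33 percentile points (SD, n = 3), negative in every replicate, with the smallest possible exact permutation p of 0.25. In the replicate lists members were few at both ends of the score range, but in the p-filtered list 18.1% lay in the bottom decile. The top score decile held 6.90%, 4.18% and 3.03% of them in replicates 1, 2 and 3, and the bottom decile 8.05%, 4.18% and 3.46%, where an even spread gives 10%. Median widths were 40, 45 and 40 nt in the members, against 45, 55 and 50 nt elsewhere in replicates 1, 2 and 3. In the combined list the median LOD was 5.37 (quartiles 4.03 and 6.93) in members and 6.46 (4.49 and 9.14) in the rest, and the median width was 40 nt in members and 50 nt in the rest. The genes were close to each other in combined LOD, with medians between 4.99 (IMMP2L) and 5.75 (MACROD2). Neighbouring members were farther apart, with a median gap of 1325 nt against 365 nt in the rest. By gene the median gap ran from 1150 nt in EXOC4 to 12300 nt in FHIT.

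Few of the sites in giant genes were found in all 3 replicates. Of the 883 combined members, 64 overlapped a same-strand site in every replicate list (7.25%, 95% Wilson interval 5.72 to 9.15), against 150539 of the 657970 other sites (22.9%, interval 22.8 to 23.0). Over the whole combined list the share was 22.9%. A single list was overlapped by 499 members (56.5%), against 36.1% of the rest, and no list by 143 (16.2%), against 11.0%. The single list was mostly that of replicate 3, which alone held 441 members (49.9%), against 28.1% of the rest. Leaving out replicate 1, 25.7% of the members lay in both other lists, against 51.3% of the rest. Replicate 1 overlapped 9.74% of the members and 25.4% of the rest. Replicate 2 overlapped 31.8% of the members and 59.2% of the rest, the widest gap of the 3, and replicate 3 overlapped 76.8% and 80.2%, the narrowest.

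**Figure D4:**
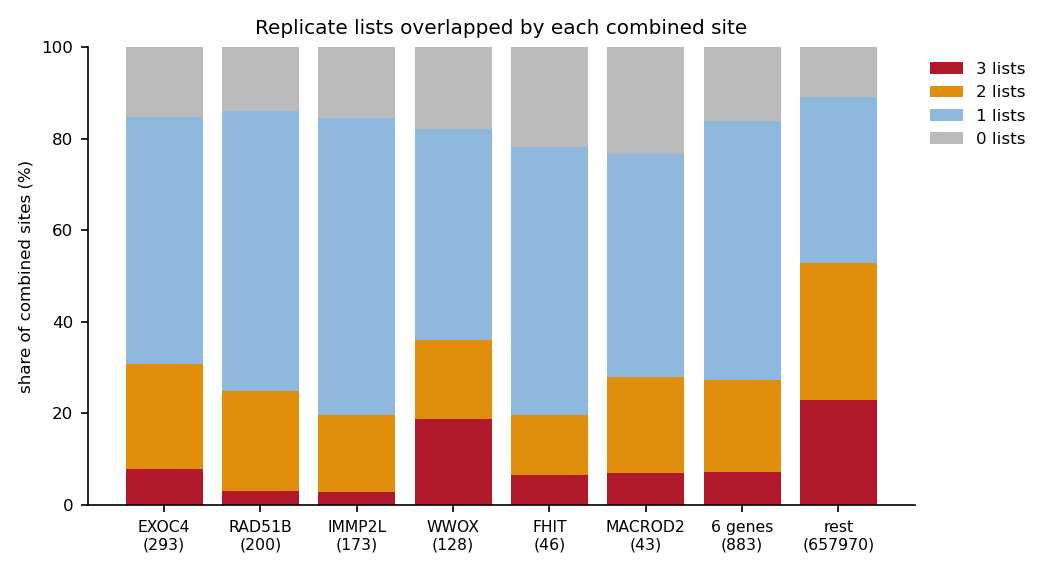
Share of combined sites that overlapped 3, 2, 1 or 0 replicate lists, for each gene, the 6 genes together and the rest of the list, with the number of sites in parentheses. Sites in all 3 lists make up 7.25% in the 6 genes and 22.9% in the rest, and WWOX has the largest such share of the 6, 18.8%.

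Counted from each replicate's own list, the share was lower in the members every time. In replicate 1, 64 of 87 members overlapped a site in both other lists (73.6%), against 89.1% of its other sites, and 89.1% over the list. In replicate 2 it was 64 of 287 (22.3%) against 37.8%, with 37.8% over the list. In replicate 3 it was 64 of 693 (9.24%) against 28.4%, with 28.4% over the list. The difference was -15.6, -15.5 and -19.2 percentage points, a mean of -16.8 ± 2.08 (SD, n = 3), and the exact sign-flip permutation test gave p = 0.25, the smallest it can give. The 3 values rest on the same overlaps among the 3 lists and are not independent, which the SD and the test do not take into account. Of the replicate 3 members, 450 (64.9%) overlapped no site of the other lists, against 35.0% of its other sites. Over bases, 2770 of the 33315 nt called in any replicate within the genes were called in all 3 (8.31%), against 21.8% of the 37.5 Mb called in the whole series.

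Recurrence was higher at higher combined LOD, and 56.2% of the members fell in the lowest 2 quintiles of the combined list. Within each quintile the recurrent share was lower in the members. In the highest quintile 37 of 54 members were in all 3 lists (68.5%, interval 55.3 to 79.3), against 76.4% of the rest. In quintile 4 it was 19 of 130 (14.6%, interval 9.56 to 21.7) against 22.9%, and in the lowest 3 of 228 (1.32%) against 4.13%. Averaged over quintiles, each weighted by its number of members, the difference at matched score was -4.69 percentage points, against -15.6 without matching. Members were also narrower in all quintiles but the lowest, where both medians were 30 nt. The medians were 35 against 40 nt, 45 against 50 nt and 55 against 60 nt in quintiles 2, 3 and 4. In the highest they were 62.5 nt against 80 nt, and the part of width in recurrence was not tested. The combined scores contain the replicates' reads and are not independent of recurrence.

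**Figure D5:**
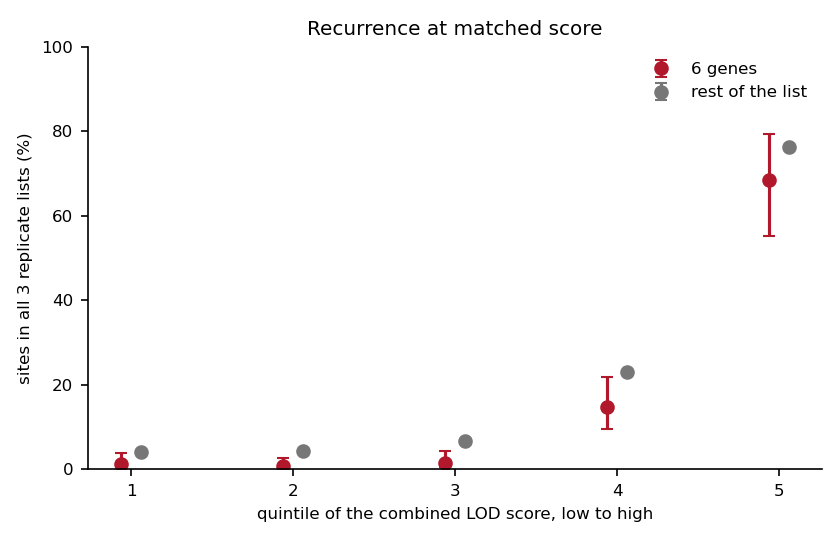
Share of combined sites found in all 3 replicate lists, by quintile of the combined LOD score, for the 6 genes and the rest of the list. Bars are 95% Wilson intervals for counting error only. The 6 genes lie below the rest in each quintile, and the interval of the highest quintile, 55.3 to 79.3%, includes the 76.4% of the rest.

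Recurrent sites were unevenly divided between the genes. WWOX held 24 of the 64 (18.8% of its combined sites, interval 12.9 to 26.4) and EXOC4 23 (7.85%, interval 5.29 to 11.5). RAD51B had 6, IMMP2L 5, and FHIT and MACROD2 3 each, with shares from 2.89% (IMMP2L) to 6.98% (MACROD2). The 10-kb window of WWOX with most bases called in all 3 replicates was 16:78150001-78160000, which starts 16.7 kb into the gene. This window held 33 combined sites and 14, 27 and 34 sites of replicates 1, 2 and 3, with 755 nt called in all 3. Of its 33 combined sites 13 were in all 3 lists, a count that the choice of the window favours, and the rest of WWOX had 11 of 95. Without the window the share over the 6 genes was 6.00%. The window with most bases called in all 3 replicates in EXOC4, 7:133740001-133750000, had 175 nt and lies at its 3′ end. In MACROD2 all 135 nt called in every replicate lay in 20:14030001-14040000, 53.9 kb into the gene. The leading windows of the remaining genes had 90 nt (IMMP2L, 7:110300001-110310000, at the 3′ end), 65 nt (RAD51B, 14:68960001-68970000) and 35 nt (FHIT, 3:60980001-60990000). Recurrent sites made up a larger share near the 5′ ends, with 33 of 268 members in the first 100 kb (12.3%, interval 8.90 to 16.8) and 31 of 615 farther in (5.04%, interval 3.57 to 7.07). Without the WWOX window the first 100 kb gave 20 of 235 (8.51%). The median combined LOD moved with this, at 5.85 in the first 100 kb and 5.16 farther in, and its part in the difference was not tested.

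Of the 10 highest recurrent sites, 4 in WWOX and 2 in MACROD2 lay near the 5′ end, and the other 4, in RAD51B and EXOC4, lay farther in. WWOX led with 16:78156916-78157120 (combined LOD 17.0, 23.7 kb from the 5′ end), a site of 205 nt where the median member has 40 nt. RAD51B followed with 14:68964166-68964235 (LOD 16.8), which stood apart from the 5′ group at 678 kb into the gene. Its replicate scores were at percentiles 83.5, 98.4 and 89.4. MACROD2 had 20:14035876-14035965 (LOD 16.6, at 59.8 kb) and 20:14033626-14033685 (LOD 15.5), both in the window that held its recurrent bases. In EXOC4 the highest were 7:133163961-133164095 (LOD 14.7, at 226 kb), 7:133749871-133749975 (LOD 13.8), which ends 1367 nt before the 3′ end, and 7:133331171-133331220 (LOD 13.7, at 393 kb). No member of the combined list had a LOD above 22. In the p-filtered list the highest member LOD was 25.3, in WWOX, at an interval overlapping the combined site 16:78155916-78156040. WWOX had 3 more of the 10 highest, 16:78151896-78151965 (LOD 15.6), 16:78149656-78149745 (LOD 15.0) and 16:78154761-78154970 (LOD 14.9). They lay 18.6, 16.4 and 21.5 kb into the gene. FHIT had the lowest leader, 3:60986616-60986660 (LOD 10.6), with replicate percentiles of 39.4, 44.9 and 73.5.

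In FHIT and IMMP2L the highest-scoring member of all was not recurrent. FHIT had a LOD of 12.8 at 3:59959706-59959730, a 25-nt site found in replicate 3 alone, where it stood at percentile 98.3. IMMP2L had 12.8 at 7:110765016-110765070, found in replicates 2 and 3 at percentiles 32.8 and 98.2. The p filter kept neither.

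The authors' p filter, at p 0.05, kept a smaller share of the sites in the giant genes than elsewhere. A p-filtered interval overlapped 313 of 883 members (35.4%, 95% Wilson interval 32.4 to 38.7), against 52.3% of the rest and 52.3% of the whole combined list. WWOX had the largest kept share of the 6, 47.7%, followed by EXOC4 (39.2%) and RAD51B (39.0%), and IMMP2L the smallest, 19.7%. Among sites in the same number of replicate lists, the kept shares of members and rest lay close together. The filter kept 62 of 64 members in all 3 lists (96.9%, interval 89.3 to 99.1) against 98.1% of the rest. It kept 65.5% against 66.6% of the sites in 2 lists, 23.2% against 24.2% of those in 1 and 13.3% against 10.4% of those in none. The 5′ concentration was present after the filter too, with 86.0% of the 321 p-filtered members in the 5′ 50% of the spans.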

How the data were processed

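The submitters' processing notes name cutadapt (1.0), TopHat2 (2.0.8) and the build hg19, also called GRCh37. The authors deposited 5 lists of strand-specific intervals on a 5-nt grid, each interval with a LOD score. No source used here says how intervals were called or scored. Scores were above 0 in all lists, and the name of 1 combined list gives a p limit of 0.05. Samples were grouped by title.

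Members were taken by coordinates and strand, and 0 sites crossed a span end. Sites of different lists matched when they shared at least 1 nt on the same strand. Shares have 95% Wilson intervals for counting error only, and replicate values were compared by an exact two-sided sign-flip permutation test, whose smallest p is 0.25. Python (3.11.15), with numpy (2.4.6), pandas (2.3.3), scipy (1.17.1) and matplotlib (3.10.9), was used, and the code was tested on simulated data. Coordinates are 1-based.

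The genes, lists and measures were chosen with earlier results of these data known. 1 gene that the choice also named is not reported here. Named are the 6 genes, in each the highest combined site in all 3 replicates, and the 10 highest such sites over the 6 genes. Any member of the combined list with a LOD above 22 was to be named too. In each gene the 10-kb window with most bases in all 3 replicates and the longest site-free stretch are named. Leading sites that were not recurrent, the 3′ group and the 1-Mb windows were chosen after their values were seen. Planned results on introns and base composition were not run, because no hg19 genome or annotation was at hand.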

Additional observations from a re-analysis of the deposited data

How the results depend on the processing

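For 16 results, 105 values were computed under other settings. Of these, 0 changed direction, 13 moved by more than the replicate SD, the 95% interval or, for counts, 1.5 times, and 92 did not. For the share of the list, the density of each gene and the gene order, no change of direction could be recorded. The 0 therefore speaks for the other results only. The SDs are wide, so many shifts fall inside them. At LOD above 2 the score percentile was 34.6 and the LOD difference between members and rest -1.35. With spans trimmed by 50 kb at each end, density was 6.38 in WWOX, the strand ratio 44.1, recurrence 4.63% against 22.9% in the rest, the kept share 32.0%, and the width difference -11.7 nt. With lists of equal size the strand ratio was 37.3. With at least 50% of each interval shared, recurrence was 4.98% and the kept share 31.4%, against 13.4% and 41.7% in the rest. In the p-filtered list recurrence was 19.3% against 42.6%, and the LOD difference -2.11. Trimming leaves out, by construction, the first 50 kb, which held 150 of the combined members, and matching by 50% admits fewer pairs. For the others the cause was not tested. Without MACROD2 the strand ratio has no value, because replicate 1 then had 0 sites on the opposite strand.

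Without each replicate in turn, the share of the list ranged from 0.0588% to 0.0984%, the strand ratio from 50.5 to 60.2, the percentile from 36.7 to 38.9, the 5′ share from 83.9% to 87.2% and the width difference from -10 to -7.5 nt. Recurrence ranged from 7.70% to 25.7% (without replicate 1, against 51.3% in the rest), where matching in 2 lists replaces 3. Density ranged from 26.0 to 41.9 in EXOC4, 12.4 to 24.3 in RAD51B, 7.47 to 19.4 in IMMP2L, 12.4 to 15.3 in WWOX, 1.87 to 2.96 in FHIT and 1.49 to 2.16 in MACROD2. IMMP2L fell to 7.47 without replicate 3, under WWOX at 12.4. Of 15 gene pairs, 13 kept their order without replicate 3, 15 with trimmed spans and 12 with lists of equal size, where WWOX (13.4) passed RAD51B (8.26) and IMMP2L (5.77), and MACROD2 (1.57) passed FHIT (1.55). Alternatives for leaving a replicate out of recurrence and width, for MACROD2, the WWOX window, bases and equal gene weights were added after seeing the data. Unknown depth limits every statement on missing sites. No paired analysis was possible because values of the negative controls were not used here.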
